A study of Arabidopsis thaliana with 15 samples.

Results

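The genes described here are root extensin genes, chosen as a list of 10 Arabidopsis loci that encode proline-rich extensins, many of them known from root hairs. A locus was included if the array annotation gave a probe set that belongs to it alone. That held for 6 of the 10 genes: AT1G26240, AT1G26250, AT1G23720, AT3G28550, AT3G54580 and AT4G08410. EXT6, EXT10, EXT12 and EXT13 were not analysed here. Of the 6 measured genes, 5 were tested. AT3G54580 stayed below the filter on dim probe sets, a mean log2 signal of 6.845 or a signal of 115.

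Extensins are structural glycoproteins of the plant cell wall. Their serine-proline repeats are hydroxylated and decorated with short arabinose chains, and tyrosines in the repeats can be cross-linked by class III peroxidases, which locks the proteins into a network. In roots, many genes of the family are transcribed in hair cells during tip growth, and mutants of some of them, or of the enzymes that glycosylate them, have short or burst root hairs.

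Roots of 2-week-old plants, grown in modified Knop's medium at 23 °C with 16 h of light and 8 h of darkness, were measured on 15 oligonucleotide arrays, 3 for each of 5 genotypes. The genotypes were the grf1/grf2/grf3 triple mutant, whose ecotype label names both Col-0 and WS, the line P35S:rGRF3 (ecotype label WS), the line P35S:rGRF1 (ecotype label Col-0), wild-type WS and wild-type Col-0. GRF1, GRF2 and GRF3 are growth-regulating factors, plant transcription factors held down by the microRNA miR396. Each overexpressor is given as a transgenic line in which the viral 35S promoter, active in nearly all cell types, drives a GRF form that miR396 cannot target. The question put by the series is which root genes respond to GRF1 and GRF3. No check of the labels was made on the GRF genes, which are not analysed here. Nothing in the labels says that the 3 samples of a genotype were grown separately, and a p-value here covers the spread among them, which may be technical.

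The arrays formed 2 sets by their control probe sets. The hybridization controls read 10.72 to 11.2 (log2 signal) on the 6 arrays of the mutant and WS and 9.679 to 10.33 on the other 9. The 3' minus 5' difference of the actin, GAPDH and ubiquitin probe sets, a sign of RNA or label quality, was 1.27 to 1.47 in the mutant and 1.38 to 1.79 in WS, and ran from 0.957 to 1.13 over P35S:rGRF3, P35S:rGRF1 and Col-0. The ecotype label of P35S:rGRF3 was set beside its arrays. At 62 probe sets that differed at least 16-fold between WS and Col-0, P35S:rGRF3, labelled WS, lay nearer to Col-0 at 60 and nearer to WS at 2, while the mutant lay nearer to Col-0 at 3 and nearer to WS at 59. These probe sets were picked by a comparison that crosses the array sets. Likeness in ecotype and likeness in array set cannot be told apart here, and the label is not shown to be wrong. P35S:rGRF3 is therefore given against Col-0 as well as against WS. In every comparison of the mutant or WS with the other 3 genotypes, array set, ecotype and genotype cannot be told apart. Since the mutant's label names both ecotypes, genotype and ecotype background cannot be told apart in the mutant against WS either. All 7 measured root hair genes outside the family, of 38 listed peroxidase, wall and growth genes, read above the filter value on each of the 15 arrays.

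**Figure D1:**
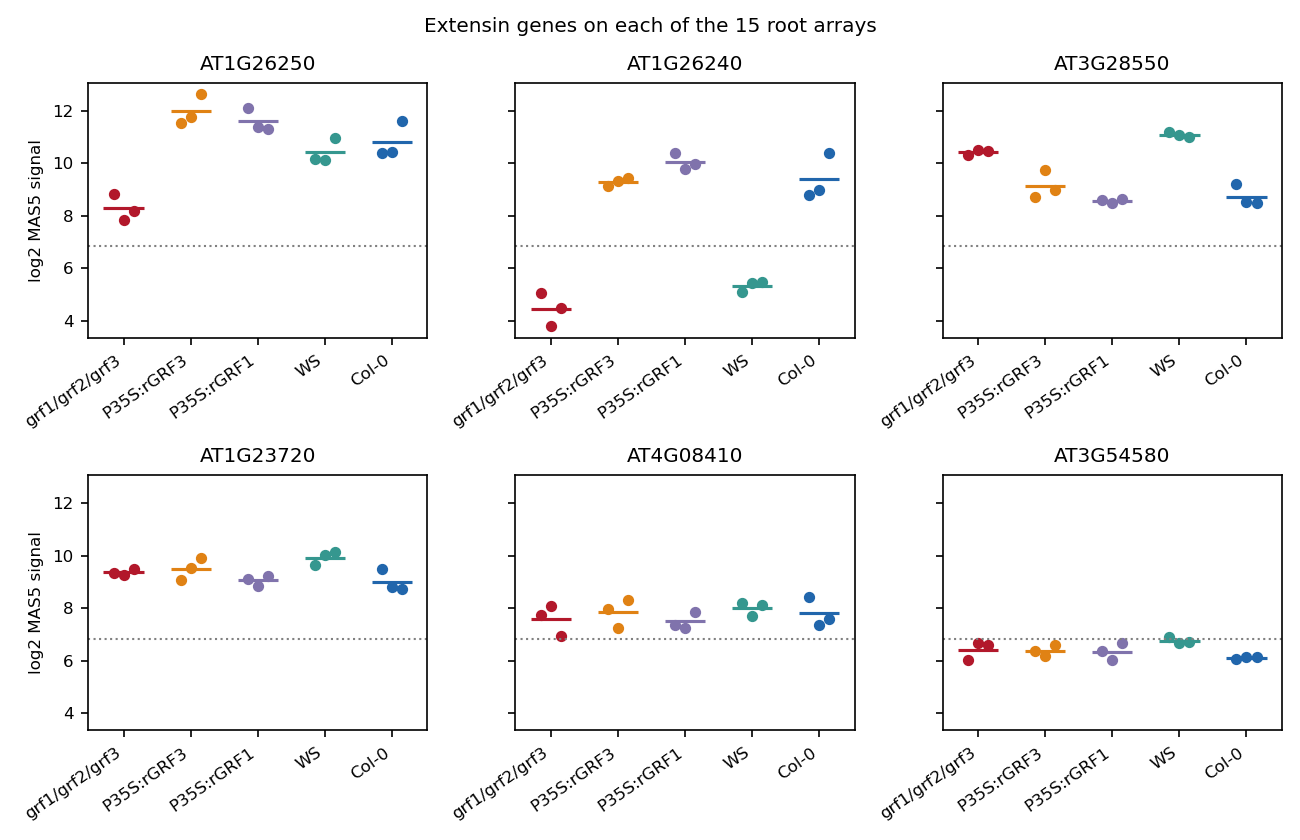
Log2 MAS5 signal (vertical axis) of each of the 6 measured extensin genes on the 15 arrays, grouped by genotype (horizontal axis); points are arrays, horizontal bars are means of 3, and the dotted line is the filter value of 6.845. AT1G26250 was lowest in the mutant, AT1G26240 lay below the filter value on all 6 mutant and WS arrays, AT3G28550 was highest in WS, and AT3G54580 lay below the filter value on 14 of 15 arrays.

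AT1G26250 was the extensin gene that set the triple mutant apart. It read 8.84, 7.85 and 8.19 (log2 signal) on the mutant arrays, against 10.16, 10.14 and 10.98 on the WS arrays. Every mutant array lay below every WS array. In the lines it read 11.54, 11.75 and 12.64 on P35S:rGRF3 arrays and 12.10, 11.37 and 11.32 on P35S:rGRF1 arrays, against 10.39, 10.44 and 11.62 in Col-0. Col-0 replicate 3 stood above the other Col-0 arrays and reached into the range of both lines. On the linear scale the mean signal was 328 in the mutant, 4265 in P35S:rGRF3, 3198 in P35S:rGRF1, 1429 in WS and 1962 in Col-0.

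Against WS, AT1G26250 fell in the mutant by 2.13 on the log2 scale (SE 0.36, 95% interval -2.89 to -1.37, adjusted p = 0.00108, limma), a level 4.37-fold lower. The comparison lies within 1 array set, though the mutant's ecotype label also names Col-0. Within that set the hybridization controls did not overlap, at 10.72 to 10.805 in the mutant and 10.85 to 11.2 in WS. The part of that difference in the result was not tested. Leaving out any 1 array of either genotype gave differences from -2.40 to -1.85, all past the threshold. Against Col-0, across the array sets, the mutant was lower by -2.52 (SE 0.36, adjusted p = 3.62e-05). In whole roots, fewer cells that express a gene and less RNA per cell cannot be told apart.

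AT1G26250 rose in P35S:rGRF3 against Col-0 by 1.16 (SE 0.36, adjusted p = 0.0465, limma), with overlapping arrays. That call rested on single arrays and did not hold without Col-0 replicate 1 (0.95, adjusted p = 0.121), Col-0 replicate 2 (0.97, adjusted p = 0.169), P35S:rGRF3 replicate 2 (1.27, adjusted p = 0.0613) or P35S:rGRF3 replicate 3 (0.83, adjusted p = 0.173). P35S:rGRF3 replicate 3, the highest of the 15 arrays at AT1G26250, also had the lowest signal at the poly-A controls, RNAs added before labelling, at 6.96. The part of that difference in the result was not tested beyond a fit with the poly-A signal as a covariate, which gave 1.07 (adjusted p = 0.0787). Against WS, across the array sets, P35S:rGRF3 was higher by 1.55 (SE 0.36, adjusted p = 0.00188).

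In P35S:rGRF1 the difference of AT1G26250 from Col-0 was 0.78 (SE 0.36, 95% interval 0.02 to 1.54, adjusted p = 0.177), short of the threshold. It depended on Col-0 replicate 3, without which it was 1.18 (adjusted p = 0.0358). Between the lines, P35S:rGRF3 minus P35S:rGRF1 came to 0.38 (95% interval -0.39 to 1.14, adjusted p = 0.487). Ranked by mean, the order was P35S:rGRF3, P35S:rGRF1, Col-0, WS and the mutant, and of the 4 steps between neighbours in that order only the one between WS and the mutant passed the test.

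AT1G26240 is the neighbour of AT1G26250 on chromosome 1, with 0 protein-coding genes between them in the reference table, and encodes another proline-rich extensin. It read 5.05, 3.79 and 4.50 (log2 signal) in the mutant, against 5.08, 5.42 and 5.47 in WS. All 6 of those arrays lay below the filter value, with signals of 13.8 to 44.2, and the highest mutant array lay just under the lowest WS array. It read 9.13, 9.34 and 9.43 in P35S:rGRF3 and 10.40, 9.79 and 9.97 in P35S:rGRF1, against 8.79, 8.996 and 10.38 in Col-0. As at AT1G26250, Col-0 replicate 3 was the highest of its group.

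The large step at AT1G26240 lay between the array sets. WS differed from Col-0 by -4.07 (SE 0.35, adjusted p = 1.3e-07, limma) and the mutant from Col-0 by -4.94 (SE 0.35, adjusted p = 1.41e-08). P35S:rGRF3 differed from WS, its labelled ecotype, by 3.98 (SE 0.35, adjusted p = 1.58e-07). These comparisons cross the array sets, and no probe-level values were used, so a lower transcript level in WS and a poorer match of the probes to a WS allele cannot be told apart. The gene passed the filter only through the 3 genotypes in which it was high, and had to differ. Every signal below the filter value was also set to that value, a setting chosen after seeing the data. The differences were then -2.545 for WS and for the mutant against Col-0 and 2.455 for P35S:rGRF3 against WS. Since the gene had to differ, these values describe the size of the step, and the p-values above do not test it.

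Within the array sets no call was made at AT1G26240. The mutant differed from WS by -0.88 (SE 0.35, adjusted p = 0.107), a difference between dim signals that became 0 with the filter value as a floor and was -1.18 without mutant replicate 1 (adjusted p = 0.0470). P35S:rGRF1 differed from Col-0 by 0.66 (SE 0.35, 95% interval -0.07 to 1.40, adjusted p = 0.232), and by 1.16 without Col-0 replicate 3 (adjusted p = 0.0157). P35S:rGRF3 differed from Col-0 by -0.09 (95% interval -0.82 to 0.64, adjusted p = 0.905) and from P35S:rGRF1 by -0.75 (SE 0.35, adjusted p = 0.133), although the arrays of the lines did not overlap.

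**Figure D2:**
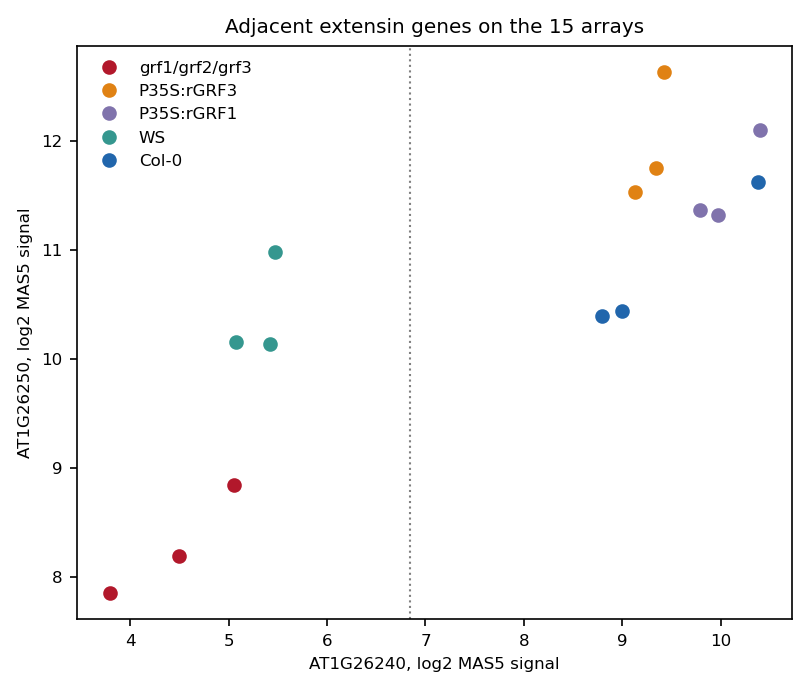
Log2 MAS5 signal of AT1G26240 (horizontal axis) against that of its neighbour AT1G26250 (vertical axis), 1 point for each of the 15 arrays, coloured by genotype; the dotted line is the filter value of 6.845. The mutant and WS arrays lie left of the line and the other 9 right of it, while on the vertical axis the mutant arrays (7.85 to 8.84) lie below the WS arrays (10.14 to 10.98), which overlap the Col-0 arrays (10.39 to 11.62).

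AT3G28550, another proline-rich extensin gene, was higher in WS than in Col-0, where AT1G26240 was lower. It read 11.18, 11.08 and 10.99 (log2 signal) in WS, against 9.20, 8.51 and 8.49 in Col-0. The mutant arrays, at 10.30, 10.50 and 10.48, stood between those of the wild types. P35S:rGRF1 read 8.59, 8.49 and 8.65, and P35S:rGRF3 read 8.70, 9.74 and 8.97, where replicate 2 lay above the others. AT3G28550 was higher in WS than in Col-0 by 2.36 (SE 0.22, adjusted p = 2.97e-07, limma), a 5.12-fold difference, and higher in the mutant than in Col-0 by 1.70 (SE 0.22, adjusted p = 1.14e-05). It was lower in P35S:rGRF3 than in WS by -1.95 (SE 0.22, adjusted p = 2.05e-06). These comparisons cross the array sets.

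In the mutant against WS the difference of AT3G28550 was -0.66 (SE 0.22, 95% interval -1.12 to -0.20, adjusted p = 0.0526), just short of the threshold, with no overlap between the arrays. It passed with an offset of 16 (adjusted p = 0.0476), after quantile normalization (0.0371), with array weights (0.0111) and with only the 2 groups (0.00102). In the other 11 of 15 alternatives it did not pass, and with an array left out the adjusted p ran from 0.0943 to 0.146. P35S:rGRF1 differed from Col-0 by -0.16 (95% interval -0.61 to 0.30, adjusted p = 0.681). P35S:rGRF3 differed from Col-0 by 0.40 (95% interval -0.05 to 0.86, adjusted p = 0.256) and from P35S:rGRF1 by 0.56 (SE 0.22, adjusted p = 0.0749). Without P35S:rGRF3 replicate 1 that last difference was 0.78 (adjusted p = 0.0248).

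AT1G23720 and AT4G08410 were read by probe sets whose suffix marks probes shared with other transcripts, so signal from near-identical extensin repeats may be included. AT1G23720 read 9.34, 9.28 and 9.50 (log2 signal) in the mutant, against 9.63, 10.03 and 10.14 in WS and 9.49, 8.80 and 8.75 in Col-0. Its arrays read 9.07, 9.52 and 9.90 in P35S:rGRF3 and 9.12, 8.84 and 9.25 in P35S:rGRF1. WS was the highest genotype, and differed from Col-0 by 0.92 (SE 0.21, adjusted p = 0.00194, limma) with no overlap, a comparison that crosses the array sets.

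Within the array sets AT1G23720 did not pass. It differed by -0.56 in the mutant against WS (SE 0.21, adjusted p = 0.0957, and 0.0111 with array weights, 0.0157 with only the 2 groups and 0.0224 with the poly-A covariate), by 0.06 in P35S:rGRF1 against Col-0 (adjusted p = 0.886), by 0.48 in P35S:rGRF3 against Col-0 (95% interval 0.03 to 0.94, adjusted p = 0.165) and by 0.42 in P35S:rGRF3 against P35S:rGRF1 (adjusted p = 0.173). Against Col-0 without its replicate 1, the highest of that group, the difference of P35S:rGRF3 was 0.72 (adjusted p = 0.0271) and that of the mutant was 0.60 (adjusted p = 0.0237), beside 0.36 with all arrays (adjusted p = 0.182). P35S:rGRF3 differed from WS by -0.44 (adjusted p = 0.0959), by -0.59 without WS replicate 1 (adjusted p = 0.0486) and by -0.64 without P35S:rGRF3 replicate 3 (adjusted p = 0.0230). No step between neighbours in the order of the 5 means, which was WS, P35S:rGRF3, the mutant, P35S:rGRF1 and Col-0, passed the test.

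AT4G08410 varied as much within genotypes as between them. It read 7.76, 8.09 and 6.93 (log2 signal) in the mutant, 7.96, 7.27 and 8.30 in P35S:rGRF3 and 7.37, 7.26 and 7.86 in P35S:rGRF1, against 8.21, 7.70 and 8.13 in WS and 8.45, 7.37 and 7.60 in Col-0. All groups overlapped, and its differences in the 7 comparisons ran from -0.42 in the mutant against WS (95% interval -1.10 to 0.27, adjusted p = 0.442) to 0.34 in P35S:rGRF3 against P35S:rGRF1 (95% interval -0.34 to 1.03, adjusted p = 0.481). A second probe set, annotated to AT4G08410 and a further gene together, was left out by the rule.

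AT3G54580 was dim. Its signals ran from 64.6 to 102 in the mutant, 71.9 to 97.3 in P35S:rGRF3 and 65.3 to 101 in P35S:rGRF1, against 103 to 119 in WS and 66.3 to 70.5 in Col-0. WS was above every Col-0 array. With no filter on dim probe sets its difference between WS and Col-0 was 0.66 (adjusted p = 0.0424, limma), and the other 6 comparisons did not pass.

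Counted over the 5 tested genes, the mutant against WS had 1 lower (AT1G26250) and 0 higher, beside 6.54% lower and 7.38% higher of all 13648 probe sets tested. All 5 differences were negative, with a median of -0.66 beside -0.01 over all probe sets, and the arrays of 4 did not overlap, beside 34.9% of all probe sets, though AT1G26240 was dim in both genotypes. With the filter value as a floor its difference was 0. AT1G23720 and AT4G08410 were read by probe sets with shared probes, so the 5 signs may not be independent and are a description. P35S:rGRF1 against Col-0 had 0 of 5 called by limma, beside 10.5% of all probe sets. At an unadjusted p under 0.05 in limma's fit across all probe sets, 1 of the 5, AT1G26250, passed there, beside 26.7% of all. P35S:rGRF3 against Col-0 had 1 higher, again AT1G26250, beside 5.3% higher of all, and 0 lower, beside 6.61%. P35S:rGRF3 against P35S:rGRF1 had 0 of 5 called, beside 21.2%, and 2 of the 5, AT1G26240 and AT3G28550, passed at an unadjusted p under 0.05 in limma's fit, beside 34.5% of all.

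Across the array sets AT1G26240 is left out of the counts, since it had to differ, and 4 genes remain. WS had 2 of the 4, AT3G28550 and AT1G23720, higher than Col-0 and 0 lower, beside 31.4% higher and 20.3% lower of all probe sets. The mutant had 1 higher (AT3G28550) and 1 lower (AT1G26250) than Col-0, beside 28.1% higher and 17% lower. P35S:rGRF3 had 1 higher (AT1G26250) and 1 lower (AT3G28550) than WS, beside 19.4% higher and 33% lower. With 4 genes these counts are not set apart from the background. The comparisons share their control arrays, so their values for a gene are not independent.

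**Figure D3:**
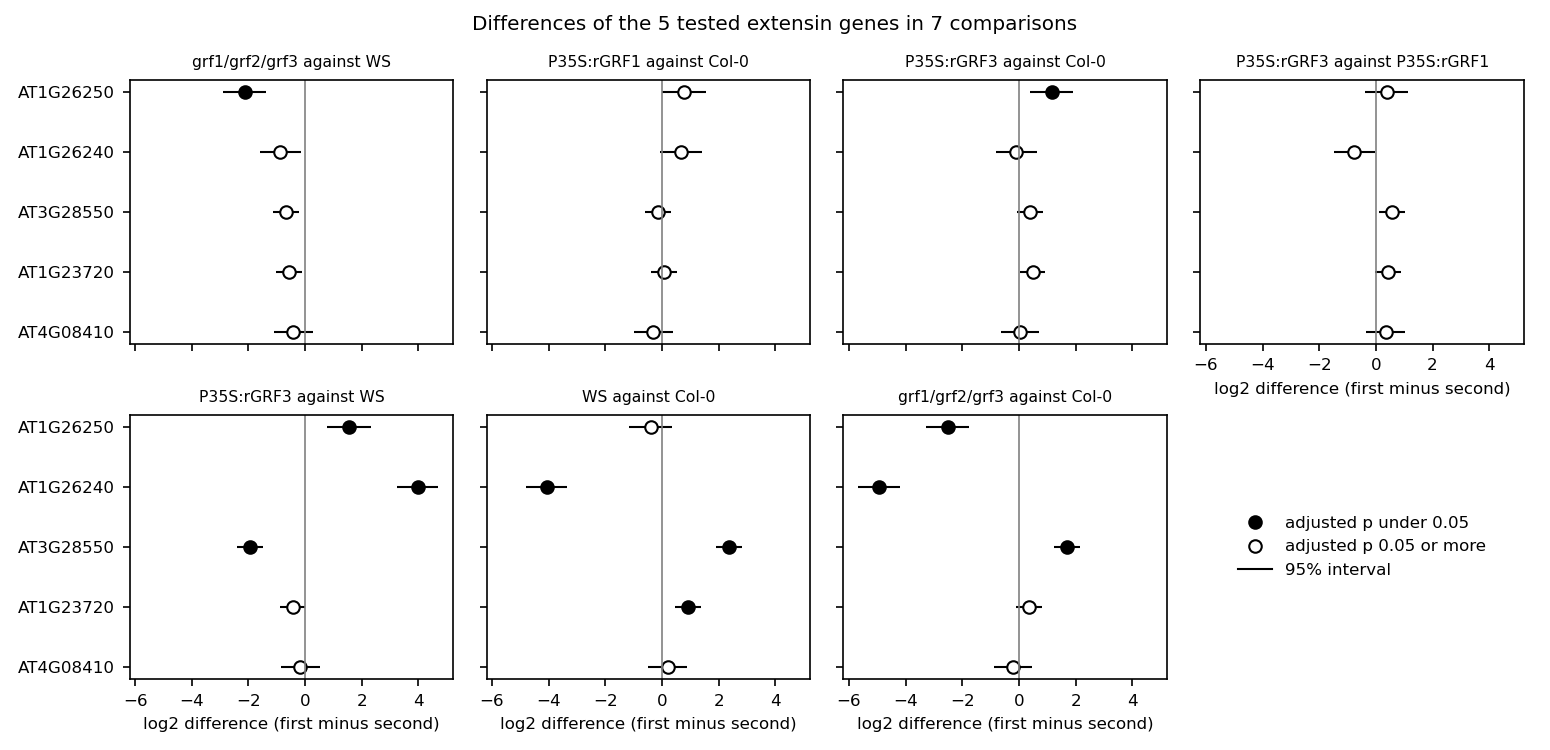
Log2 difference (horizontal axes, first genotype minus second) of the 5 tested extensin genes (vertical axes) in 7 comparisons, with 95% intervals; filled points have an adjusted p under 0.05. In the mutant against WS all 5 points lie left of 0 and only AT1G26250 is filled, while in WS against Col-0 AT1G26240 (-4.07) and AT3G28550 (2.36) lie far apart.

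AT1G26250 and AT3G28550 varied more between genotypes than most probe sets. The range of their 5 genotype means was 3.68 and 2.51 on the log2 scale, larger than at 98.9% and 97.0% of the probe sets tested, whose median range was 0.65. Both ranges span the array sets, and the members were chosen with earlier results of these data known, so these ranks are a description. The range was 0.92 at AT1G23720 and 0.52 at AT4G08410, and none is given for AT1G26240, whose means in the mutant and WS lay below the filter value.

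Of 10 other extensin genes listed, 6 were measured and 2 tested. HRGP1, which lies next to AT3G54580 on chromosome 3, averaged 9.98 ± 0.27 in the mutant and 10.30 ± 0.17 in WS (log2 signal with its SD, n = 3 each), and passed in none (0) of the 7 comparisons. AT5G06630, the neighbour of EXT10, was higher in WS than in Col-0 by 0.81 (adjusted p = 0.00298, limma) and in the mutant than in Col-0 by 0.69 (adjusted p = 0.0100), as was AT3G28550. The second of these was 0.58 without Col-0 replicate 2 (adjusted p = 0.0505). AT5G06630 was lower in P35S:rGRF3 than in WS by -0.52 (adjusted p = 0.0381). That call was lost without WS replicate 1 (-0.32, adjusted p = 0.207), WS replicate 3 (-0.55, adjusted p = 0.0613) or P35S:rGRF3 replicate 1 (-0.31, adjusted p = 0.204). Within the array sets AT5G06630 passed in none (0) of the 4 comparisons. Probe sets of both genes also carry the suffix for shared probes.

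Leucine-rich repeat extensins join an extensin domain to a domain that binds signalling peptides. Of 11 listed, 8 were measured and 2 tested. AT3G22800 rose in P35S:rGRF3 against Col-0, with 7.95, 7.96 and 8.59 (log2 signal) in the line and 7.09, 7.37 and 7.35 in Col-0, a difference of 0.89 (SE 0.25, adjusted p = 0.0283, limma). Its call was lost without Col-0 replicates 1, 2 or 3 (0.80, 0.94 and 0.94, adjusted p = 0.0687, 0.0608 and 0.0519) and without P35S:rGRF3 replicate 3 (0.68, adjusted p = 0.114). In P35S:rGRF1 its difference was 0.65 (adjusted p = 0.106). Across the array sets AT3G22800 was lower in the mutant than in Col-0 by -0.78 (adjusted p = 0.0186) and higher in P35S:rGRF3 than in WS by 1.42 (adjusted p = 0.000191). Its call in the mutant was lost without Col-0 replicates 2 or 3 (-0.73 and -0.735, adjusted p = 0.0583 and 0.0521) or mutant replicates 2 or 3 (-0.63 and -0.58, adjusted p = 0.0833 and 0.0944). Its mutant and WS means, 6.495 and 6.74, lay below the filter value. The gene thus passed the filter through the other 3 genotypes. That favoured a difference across the array sets, so its p-values there are a description and not a test. With the filter value as a floor the mutant differed from Col-0 by -0.31 (adjusted p = 0.150) and P35S:rGRF3 from WS by 1.30. The floor also narrows the spread in WS, so no p is given for the second. AT3G24480 passed in none (0) of the 7 comparisons.

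Of 12 listed enzymes that hydroxylate or glycosylate extensins, 4 were measured and tested. AT3G57630, which extends the arabinose chains of extensins, read 9.88, 10.11 and 9.87 (log2 signal) in the mutant, against 8.89, 8.99 and 8.89 in WS. It rose there by 1.03 (SE 0.24, adjusted p = 0.00870, limma), and the call held under all 15 alternatives. In P35S:rGRF1 it read 8.30, 8.52 and 8.76, against 10.02, 8.92 and 8.97 in Col-0, and fell by 0.78 (SE 0.24, adjusted p = 0.0458). Col-0 replicate 1 stood well above the other Col-0 arrays, and without it the difference was -0.42 (adjusted p = 0.190). The fall in P35S:rGRF1 was also lost without any 1 array of that line, at -0.67, -0.775 and -0.90 without replicates 1, 2 and 3 (adjusted p = 0.171, 0.108 and 0.0634). XEG113, which adds an arabinose at an earlier step, AT5G13500, which adds the first, and AT3G01720, which adds galactose to serine, did not pass in these comparisons. Across the array sets AT3G57630 was called higher in the mutant (mean 9.95) than in Col-0 (9.305), a call lost in 7 of 15 alternatives. AT3G01720 was called higher in P35S:rGRF3 (10.76) than in WS (10.42), a call lost in 4 of 15.

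Of the root hair genes outside the family, a peroxidase gene was higher in the mutant than in WS. The class III peroxidase gene AT3G49960 read 10.65, 10.60 and 10.43 (log2 signal) in the mutant, against 9.69, 9.71 and 9.75 in WS, and rose by 0.84 (SE 0.19, adjusted p = 0.00708, limma). Its mean in the mutant (10.56) was near those of Col-0 (10.50) and P35S:rGRF3 (10.53), while WS (9.715) and P35S:rGRF1 (9.65) were lower. Its call as lower in WS than in Col-0, across the array sets, held under all 15 alternatives (-0.975 to -0.543). In P35S:rGRF1 it read 9.48, 9.41 and 10.05, against 10.89, 10.12 and 10.50 in Col-0, and fell by 0.85 (SE 0.19, adjusted p = 0.0105). The fall did not pass once P35S:rGRF1 replicate 1 (-0.77, adjusted p = 0.0535) or replicate 2 (-0.735, adjusted p = 0.0508) was taken out. The differences of AT1G26250 in the mutant against WS and in P35S:rGRF1 against Col-0 had the opposite signs, and the one in the mutant passed.

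The expansin gene EXPA18, which loosens walls in growing hairs, fell in P35S:rGRF1 against Col-0 by 0.54 (adjusted p = 0.0465). Its call was lost without Col-0 replicate 1 (-0.32, adjusted p = 0.212) and without P35S:rGRF1 replicates 1, 2 or 3 (-0.43, -0.55 and -0.63, adjusted p = 0.190, 0.0998 and 0.0583). EXPA18 was also called higher in P35S:rGRF3 than in P35S:rGRF1, and lost that call in 4 of 15 alternatives. EXPA7 was called lower in the mutant than in Col-0, and lost that call in 6 of 15. In all, the 7 measured root hair genes had 1 higher and 0 lower in the mutant against WS, beside 7.38% and 6.54% of all probe sets, and 0 higher and 2 lower in P35S:rGRF1 against Col-0, beside 5.3% and 5.17%. In P35S:rGRF3 against Col-0 limma called 0 of the 7, beside 5.3% higher and 6.61% lower of all. There 0 passed at an unadjusted p under 0.05. Against P35S:rGRF1, P35S:rGRF3 had 2 of the 3 peroxidase genes and 1 of the 4 wall and growth genes higher, beside 21.2% called either way. Across the array sets, WS had 2 of the 3 and 2 of the 4 lower than Col-0, beside 20.3%. P35S:rGRF3 had 2 of the 3 and 2 of the 4 higher than WS, beside 19.4%. The mutant had 0 of the 3 called against Col-0, and 1 of the 4 higher and 2 lower, beside 28.1% and 17%. The 4 wall and growth genes summed to a signal of 3840 to 4132 in the mutant and 3360 to 3499 in WS, and the 3 peroxidase genes to 4623 to 5218 in the mutant and 3773 to 4027 in WS. These sums are led by the brightest probe sets, and their part in the result at AT1G26250 was not tested. The 11 root hair regulators and 14 genes of other root tissues that were listed were not analysed here.

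Shoot genes also moved in the mutant against WS. Of 12 listed photosynthesis genes 3 were measured, PSBY, PSBW and LHCB4.1. All 3 were lower in the mutant than in WS (-0.67, -1.10 and -0.88, adjusted p = 0.00360, 0.0152 and 0.0338, limma), beside 6.54% lower of all probe sets. Their summed signal was 846 to 1463 in the mutant and 1888 to 2310 in WS, and no gene was at 0. The call of PSBW was lost without WS replicate 1 (-1.02, adjusted p = 0.0607), WS replicate 3 (-1.05, adjusted p = 0.0581) or mutant replicate 3 (-0.85, adjusted p = 0.0799). That of LHCB4.1 was lost without WS replicates 1, 2 or 3 (-0.82, -0.94 and -0.885, adjusted p = 0.105, 0.0604 and 0.0848) or mutant replicates 2 or 3 (-0.94 and -0.59, adjusted p = 0.0671 and 0.164). P35S:rGRF3 had PSBW and PSBY lower than WS, beside 33% of all, where AT1G26250 was higher. It had the same 2 lower than P35S:rGRF1, beside 21.2% called either way. These PSBW calls were lost in 5 and 9 of 15 alternatives. WS had PSBY higher than Col-0, beside 31.4%. The mutant had LHCB4.1 lower than Col-0, beside 17%, a call lost in 7 of 15. Neither line had any called against Col-0, beside 10.5% in P35S:rGRF1 and 5.3% higher and 6.61% lower in P35S:rGRF3. The 25S ribosomal RNA probe set averaged 10.27 ± 0.52 in the mutant and 11.57 ± 0.13 in WS (SD of log2 signal, n = 3 each). The part of the shoot gene and ribosomal RNA differences in the fall of AT1G26250 was not tested.

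**Figure D4:**
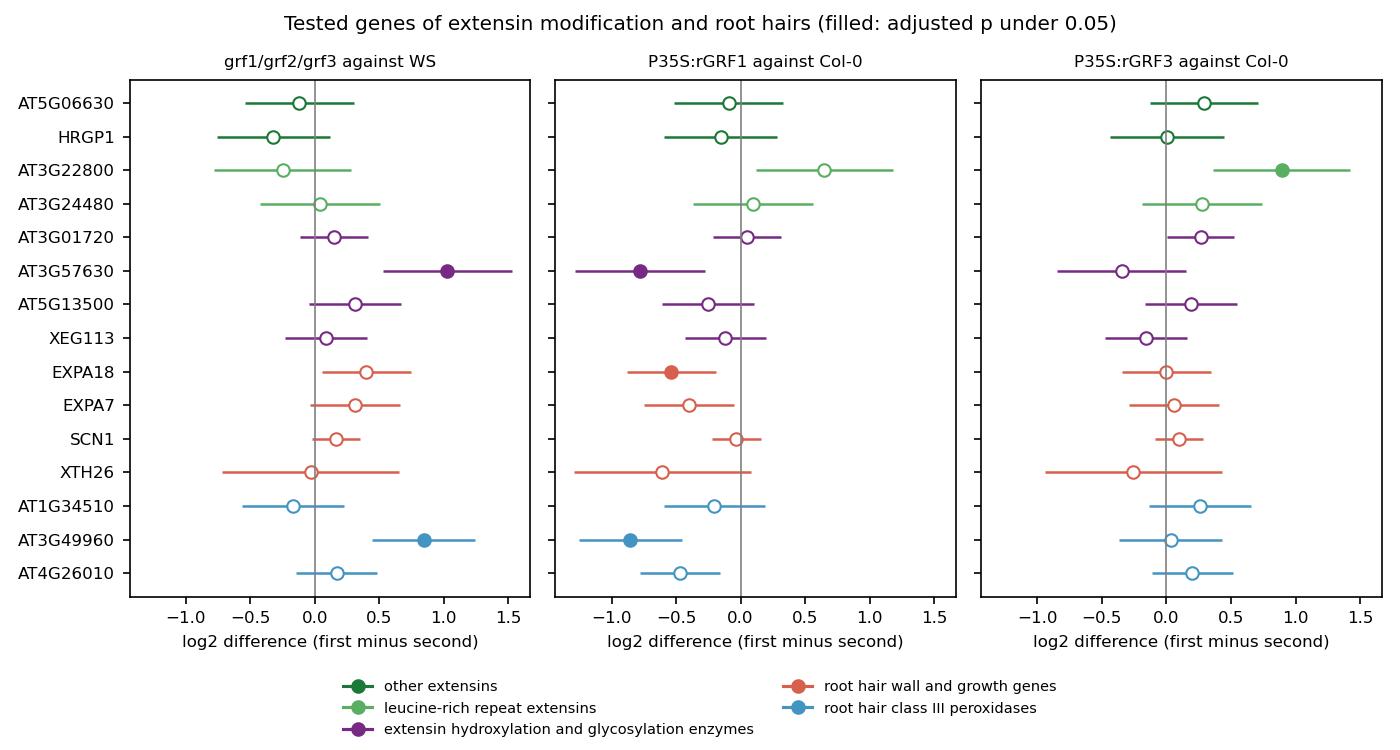
Log2 difference (horizontal axes, first genotype minus second) with 95% intervals of 15 tested genes related to extensins and root hairs (vertical axis) in the mutant against WS and in each line against Col-0; colours mark the gene lists and filled points have an adjusted p under 0.05. AT3G57630 and AT3G49960 are filled right of 0 in the mutant (1.03 and 0.84) and left of 0 in P35S:rGRF1 (-0.78 and -0.85).

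Genes with the most similar pattern were found by Pearson's r over the 15 arrays among 7341 other tested probe sets of 1 gene. Against the mean of the standardised signals of the 5 tested extensins, the leading genes were AT2G48030 (r = 0.83), AT2G31240 (0.82), AT5G12120 (0.80), AT3G59980 (0.80), AT5G19510 (0.77) and AT5G35940 (0.76). The extensins did not move together, so this mean is not a pattern that they share. AT3G28550 ran against AT1G26240 (r = -0.91) and AT1G26250 (-0.60). AT1G26240 went with AT1G26250 (0.84), and AT1G23720 with AT3G28550 (0.73). Matches of single extensins were looked for after the values were seen. AT1G26250 was matched most closely by AT5G27400 (0.95), AT5G48430 (0.94) and AT5G10700 (0.94). AT5G48430 averaged 8.74 ± 0.32 in the mutant, 13.02 ± 0.21 in P35S:rGRF3 and 12.16 ± 0.30 in P35S:rGRF1, against 10.94 ± 0.07 in WS and 11.63 ± 0.60 in Col-0 (log2 signal with its SD, n = 3 each), the same order of genotypes as AT1G26250. AT1G26240 was matched by the peroxidase gene AT1G14550 (0.99), the plastid gene ndhI (0.99) and AT5G45000 (0.98), and AT3G28550 by AT2G35880, AT4G28650 and AT5G19100 (each 0.96). Like AT1G26240, AT1G14550 and AT5G45000 lay below the filter value on every mutant and WS array. All correlations with AT1G26240, and its part in the mean of the 5, include the step between the array sets, where it had to differ. The arrays share genotype and array set, so these values describe likeness over 5 genotypes and carry no p.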

How the data were processed

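Root RNA of 5 genotypes was read on 15 arrays with 22810 probe sets each. What the authors deposited is a linear intensity per probe set, made with MAS5 per the submitters' processing notes; its version is not given in the sources used here. No arrays held identical values (highest correlation 0.962), and array medians of log2 signal spanned 0.149. The number of arrays limits the precision.

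Signals were taken to log2 with no offset. The 64 control probe sets were left out, and of the other 22746 those with a mean at or above the 40th percentile were tested, which left 13648. Genes were named only where the annotation gave 1 gene (13513 probe sets, 13436 of them found in the reference gene list of TAIR10.1, used for names and gene order), while 503 probe sets have several genes and 8730 none. The means of the 5 genotypes were fitted together, over 15 arrays, by limma 3.58.1 (R 4.3.3) with a trend, as a two-sided test. P-values were adjusted by Benjamini-Hochberg over the 13648 and called under 0.05. The fit was tested on simulated data. All measured members were named, with called genes of related lists and the 6 genes of most similar pattern. Members and lists were chosen with earlier results of these data known. A planned search for promoter motifs was not run.

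The alternatives tried were no filter, an offset of 16, quantile normalization, no trend, weighted arrays, the replicate number as a block, a fit of the compared groups alone, the signal of 24 poly-A controls as a covariate, each array left out in turn and, added after the data were seen, the filter value as a floor.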

Additional observations from a re-analysis of the deposited data

How the results depend on the processing

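The calls against the other array set kept their direction and their side of the threshold: 3 extensin genes in WS against Col-0, in the mutant against Col-0 and in P35S:rGRF3 against WS, and 3 to 4 with an array left out. Each count in this paragraph across the array sets includes AT1G26240, which had to differ and was left out of the counts above. Array weights gave 4 in the mutant against Col-0 and in P35S:rGRF3 against WS. With no filter the count in WS against Col-0 was 4, since AT3G54580 was then tested. The fall of AT1G26250 in the mutant against WS was kept under all 15 alternatives (-2.40 to -1.85). The number called there was 1, and 2 with an offset of 16, 2 after quantile normalization, 2 with the poly-A covariate, 3 with only the 2 groups, 4 with array weights and 1 to 2 with an array left out. For P35S:rGRF1 against Col-0 it was 0, and 2 with array weights and 0 to 2 with an array left out. For P35S:rGRF3 against Col-0 it was 1, and 0 with no filter, quantile normalization, no trend, only the 2 groups or the poly-A covariate, 3 with array weights, and 0 to 1 with an array left out. For P35S:rGRF3 against P35S:rGRF1 it was 0, and 1 after quantile normalization, with array weights or with only the 2 groups, and 0 to 1 with an array left out. The cause was not tested, except that leaving out arrays lowers the number of samples.

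Of 525 values of the 5 tested extensin genes under alternatives 469 kept direction and call, 2 became 0 (AT1G26240 in the mutant against WS with the floor, AT4G08410 in P35S:rGRF3 against P35S:rGRF1 with the poly-A covariate), 25 gained a call, 9 lost one (each AT1G26250 in P35S:rGRF3 against Col-0) and 20 changed sign, none of these called. With array weights these were AT3G28550 in P35S:rGRF1 against Col-0 (0.009), AT1G26240 in P35S:rGRF3 against Col-0 (0.047) and AT4G08410 in the mutant against Col-0 (0.13). With the poly-A covariate they were AT4G08410 in P35S:rGRF3 against Col-0 (-0.062) and AT1G23720 in P35S:rGRF3 against P35S:rGRF1 (-0.014). With an array left out, P35S:rGRF1 against Col-0 ran from -0.072 to 0.30 at AT1G23720, -0.28 to 0.075 at AT3G28550 and -0.53 to 0.015 at AT4G08410. P35S:rGRF3 against Col-0 ran from -0.39 to 0.40 at AT1G26240 and -0.19 to 0.36 at AT4G08410, P35S:rGRF3 against WS from -0.40 to 0.12 at AT4G08410, WS against Col-0 from -0.67 to 0.011 at AT1G26250 and -0.012 to 0.53 at AT4G08410, and the mutant against Col-0 from -0.46 to 0.12 at AT4G08410.

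Over all probe sets, the count called in P35S:rGRF1 against Col-0 was 1429, and 3017 with array weights, 919 with only the 2 groups, 757 with the poly-A covariate and 586 to 1554 with an array left out. In P35S:rGRF3 against Col-0 it was 1626, and 621 with only the 2 groups and 973 to 1793 with an array left out. In P35S:rGRF3 against P35S:rGRF1 it was 2891, and 1330 with the poly-A covariate and 1672 to 2897 with an array left out. In the mutant against WS it was 1900, and 1158 to 1392 with an array left out. Over all probe sets tested, deviations of same-numbered replicates had correlations of -0.175 to 0.251, and the samples were not treated as pairs. With few replicates these values cannot exclude an effect shared by a replicate number. At AT1G26250 replicate 3 was the highest in Col-0, WS and P35S:rGRF3, and replicate 1 in the mutant and P35S:rGRF1. The replicate block left the number of extensin genes called as it was in all 7 comparisons (AT1G26250 in the mutant against WS at -2.13, adjusted p = 0.000579), and the falls of EXPA18 and AT3G57630 in P35S:rGRF1 were at adjusted p = 0.0656 and 0.0567.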
